A study of Homo sapiens with 6 samples.

Results

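Sterol and fatty acid synthesis was examined through 33 listed genes of cholesterol synthesis, fatty acid synthesis and their control, in cultured HEK293 derivatives that express APE1 constructs. A gene counted as measured where at least 1 row of the expression table carried it as its only gene symbol. This held for 27 of the 33 genes, out of 12448 genes with such a row, and each of the 27 had 1 row. The genes ACAT2, FDFT1, CYP51A1, HSD17B7, ELOVL5 and SREBF2 were not analysed here, as they had no row of their own. The 27 measured genes were 14 of 18 genes of the sterol branch, 8 of 9 genes of the fatty acid branch, and 5 of 6 regulators and other genes. The sterol branch held 6 of 7 mevalonate genes and 8 of 11 genes from squalene formation to cholesterol.

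HEK293 is a human embryonic kidney line. Its derivatives carried a construct for wild-type APE1 (wtAPE1), a construct for a fusion of ubiquitin with APE1 (ubAPE1), or the empty vector, all in a tet-on system in which doxycycline switches expression on. Each line was sampled with doxycycline (2 µg per ml for 16 h) and without it, and all cells grew under puromycin at 1 µg per ml. The endogenous APEX1 gene, which encodes APE1, is present in all of them. The sources used here do not say whether each line is a single clone. The 6 groups were therefore wtAPE1 dox+, wtAPE1 dox-, ubAPE1 dox+, ubAPE1 dox-, vector dox+ and vector dox-. Each holds 1 column of log2 levels from a whole-transcript array, which per the labels is the authors' mean of 3 biological replicates. How far those replicates differed cannot be read from the columns, and the number of columns limits the precision of every comparison.

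To check the labels, APEX1 was read before the other genes. It stood at 10.67 log2 with and 9.50 without doxycycline in the wtAPE1 line, 10.58 with and 9.82 without in the ubAPE1 line, and 9.66 with and 9.54 without in the vector line. The columns of the APE1 lines with doxycycline were thus the highest, as labelled. The column medians over kept rows lay between 6.56 and 6.81 log2, so differences below are given relative to the median row: the median over the 11619 kept rows was taken off each difference. Those medians were -0.15 log2 for wtAPE1 minus vector, -0.08 log2 for ubAPE1 minus vector and 0.06 log2 for ubAPE1 minus wtAPE1. Kept rows had a mean of at least 5.03 log2 (the 25th percentile), and all 27 measured genes passed. HMGCS1, the marker of the gene set, was well within the measured range in every column (7.32 to 8.82 log2).

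Cholesterol is built from acetyl-CoA through mevalonate and isoprenoid units to squalene, which is closed to lanosterol and then trimmed, reduced and rearranged. Fatty acids draw on the same acetyl-CoA, through malonyl-CoA, and are then elongated and desaturated. Most genes of both branches are targets of SREBP transcription factors. These are held in the endoplasmic reticulum by INSIG proteins when sterols are plentiful and are released to the nucleus when sterols run low, so the genes usually move together. SREBP-2 mainly drives the sterol branch and SREBP-1c mainly the fatty acid branch.

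Promoter sequence was looked up because SREBP acts at such promoters together with the CCAAT-binding factor NF-Y. Windows from 250 bases before to 50 bases after a start were found in the RefSeq table (GRCh38.p14) for 25 of the 27 measured genes, 38 windows in all. Both strands were searched for CCAAT, for the GC box GGGCGG, for the E-box CACGTG and for the sterol regulatory element as TCACNCCAC. These motifs do not contain one another. CCAAT was found in 23 of the 38 windows (60.5%), against 34.6% of all 35093 windows. By gene, 12 of 13 sterol branch genes had it, 5 of 7 fatty acid genes and 2 of 5 regulators and others, against 39.7% of all 27305 genes. The share among regulators and others (40%) is thus near the one over all genes. GGGCGG was in 33 windows (86.8%), against 44.9% of all windows, and CACGTG was in 4 (10.5%), against 7.26%. TCACNCCAC was in 0 of the 38 windows, against 1.13% of all windows, which says only that these letters are not in these windows. The 250 bases before the start are printed for HMGCS1, TM7SF2 and FADS2, which passed the test of line differences described below, and for STARD4, whose levels with doxycycline ran in opposite directions in the ubAPE1 and vector lines. Capitals mark CCAAT on either strand (ATTGG where it lies on the other strand), and each sequence runs 5′ to 3′ on the gene's own strand.
HMGCS1: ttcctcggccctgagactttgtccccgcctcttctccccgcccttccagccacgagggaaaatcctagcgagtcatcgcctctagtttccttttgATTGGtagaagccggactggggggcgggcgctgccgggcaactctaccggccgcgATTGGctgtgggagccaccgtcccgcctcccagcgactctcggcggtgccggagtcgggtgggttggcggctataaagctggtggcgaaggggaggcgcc
TM7SF2: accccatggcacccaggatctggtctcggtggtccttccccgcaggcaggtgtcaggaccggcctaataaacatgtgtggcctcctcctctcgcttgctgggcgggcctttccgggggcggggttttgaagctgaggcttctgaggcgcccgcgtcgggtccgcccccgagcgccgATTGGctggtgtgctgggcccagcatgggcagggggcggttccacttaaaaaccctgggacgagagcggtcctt
FADS2: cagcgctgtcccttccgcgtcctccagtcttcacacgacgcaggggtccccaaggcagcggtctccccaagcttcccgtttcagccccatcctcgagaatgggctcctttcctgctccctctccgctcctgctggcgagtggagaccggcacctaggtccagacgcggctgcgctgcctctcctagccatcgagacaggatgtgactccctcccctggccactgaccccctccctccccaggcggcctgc
STARD4: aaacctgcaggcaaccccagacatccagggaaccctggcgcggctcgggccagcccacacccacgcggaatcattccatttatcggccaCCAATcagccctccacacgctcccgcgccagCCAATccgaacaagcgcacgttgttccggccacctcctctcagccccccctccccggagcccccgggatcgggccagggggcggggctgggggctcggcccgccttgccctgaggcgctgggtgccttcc
The HMGCS1 window, which is the first of 2 for that gene, lies at chr5:43313413-43313662 on the minus strand and has matches that begin 155 and 100 bases before the start. The TM7SF2 window lies at chr11:65111622-65111871 on the plus strand, with a match 74 bases before the start. The FADS2 window, also the first of 2, lies at chr11:61815953-61816202 on the plus strand and has none in the printed bases. FADS2 was counted above through its other window, not printed, where 1 match begins at base 6 after the start. The STARD4 window lies at chr5:111512536-111512785 on the minus strand, with matches 161 and 130 bases before the start. A match is a description of the letters and was not tested as a binding site.

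Most genes of the pathway lay below the median row in both APE1 lines relative to vector, and the differences were uneven among genes. Of the 27 measured genes, 21 lay below the median row for wtAPE1 minus vector and 22 for ubAPE1 minus vector, with medians of -0.24 log2 for wtAPE1 and -0.29 log2 for ubAPE1. The 25th percentile of all kept rows was -0.18 log2 for wtAPE1 and -0.15 log2 for ubAPE1. By limma's additive fit of cell line and doxycycline, 3 genes passed an adjusted p of 0.05 for wtAPE1 minus vector, all lower: FADS2, HMGCS1 and TM7SF2. Over all kept rows, 2.01% were called lower in that comparison. For ubAPE1 minus vector, FADS2 alone passed, again lower, where 1.31% of all kept rows were called lower. In this fit a line's columns with and without doxycycline take the place of replicates, so its p-values measure how even a difference is over them, and both comparisons use the same vector columns. At an unadjusted p under 0.05, 13 and 11 of the 27 genes were counted for wtAPE1 and ubAPE1, against 17.1% and 11.5% of all kept rows. With each column centred on its median, 7 genes passed for wtAPE1 and 6 for ubAPE1, against 4.03% and 3.55% of rows called lower. These added DHCR7, INSIG2, MSMO1 and STARD4 for wtAPE1, and HMGCS1, INSIG1, INSIG2, STARD4 and TM7SF2 for ubAPE1. In that setting the fit gave every gene the same SE (0.178 log2). Its calls therefore follow the size of a difference alone and not how even it is. Over all rows, that centring gave 468 lower and 188 higher calls for wtAPE1, against 233 and 12 as deposited, and 413 lower and 126 higher for ubAPE1, against 152 and 10.

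**Figure D1:**
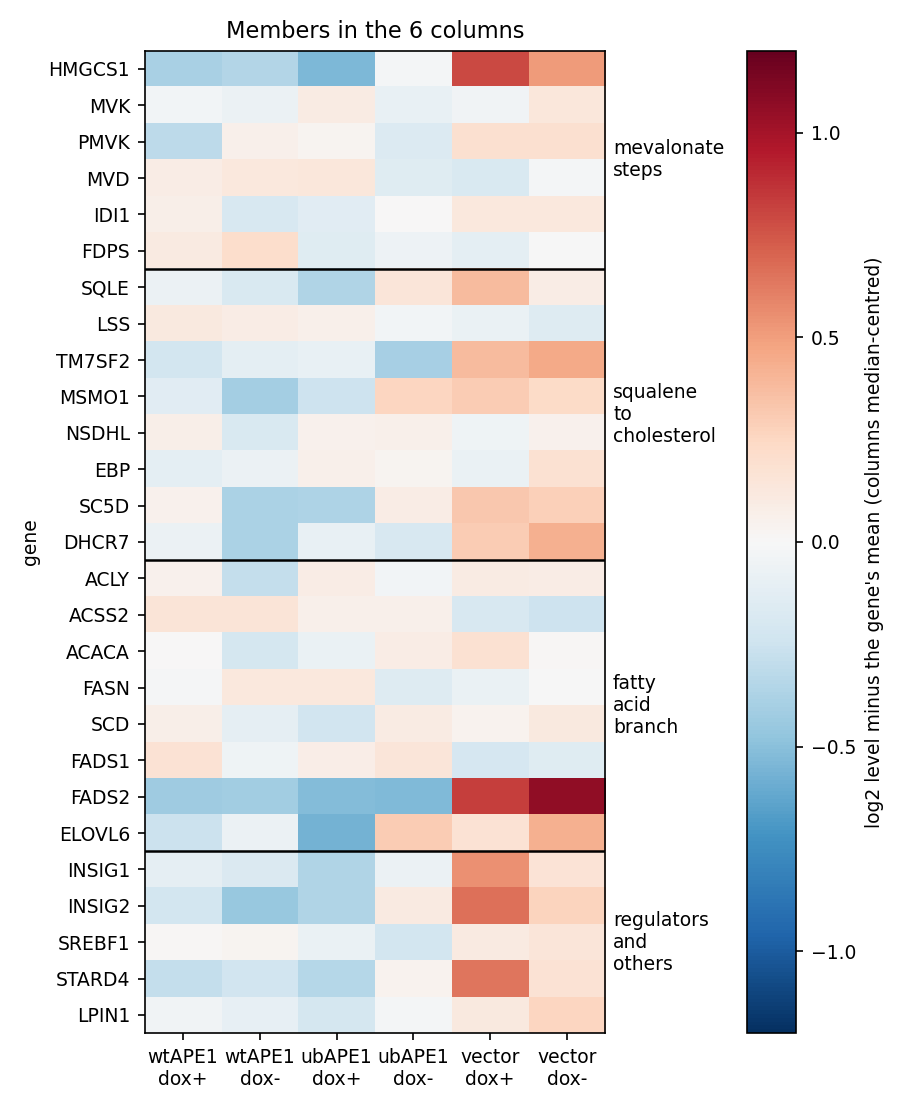
Log2 level of each of the 27 measured genes (rows) in each of the 6 averaged columns, with columns centred on their medians and each gene's mean subtracted (colour, log2). The vector columns are red for HMGCS1, TM7SF2, FADS2, INSIG1, INSIG2 and STARD4, while MVD, LSS and FASN show little spread.

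HMGCS1, the cytosolic synthase that makes HMG-CoA at the entry to the mevalonate pathway, was the sterol gene with the largest difference between lines. Its level was 7.52 log2 with and 7.48 without doxycycline in the wtAPE1 line, 7.32 with and 8.00 without in the ubAPE1 line, and 8.82 with and 8.59 without in the vector line. All 4 columns of the APE1 lines lay below both vector columns. HMGCS1 fell in wtAPE1, with a difference relative to the median row of -1.05 ± 0.22 log2 (SE, limma adjusted p = 0.0332), which is 2.07-fold lower and rank 93 from the lowest of 11619 rows. For ubAPE1 minus vector the difference was -0.97 ± 0.22 log2 (limma adjusted p = 0.0711), rank 113 from the lowest. The wtAPE1 call was lost when the wtAPE1 dox- column was left out (-1.02 log2, adjusted p = 0.122) or the vector dox+ column (-0.78 log2, adjusted p = 0.199).

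The other mevalonate steps differed far less. PMVK, which adds the second phosphate to mevalonate, was at 6.66 log2 with and 6.95 without doxycycline in wtAPE1, 6.94 with and 6.92 without in ubAPE1, and 7.27 with and 7.33 without in vector. Its relative differences from vector were -0.35 log2 in wtAPE1 (limma adjusted p = 0.17) and -0.29 log2 in ubAPE1 (adjusted p = 0.419). IDI1, which isomerises the activated isoprene unit, stood at -0.21 log2 for wtAPE1 minus vector and -0.23 log2 for ubAPE1 minus vector, and MVK, the mevalonate kinase, at -0.12 log2 for wtAPE1 and -0.07 log2 for ubAPE1. MVD, the decarboxylase that follows, lay above the median row, at 0.19 log2 in wtAPE1 and 0.06 log2 in ubAPE1. FDPS, which builds farnesyl diphosphate, was at 0.19 log2 in wtAPE1 and -0.08 log2 in ubAPE1. None of these 5 genes passed the test in either line. Over the 6 mevalonate genes the median relative difference was -0.17 log2 for wtAPE1 and -0.15 log2 for ubAPE1.

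Among the steps after squalene, TM7SF2, a sterol reductase of the endoplasmic reticulum, differed most evenly. It was at 6.26 log2 with and 6.28 without doxycycline in the wtAPE1 line, 6.33 with and 6.19 without in the ubAPE1 line, and 6.97 with and 7.10 without in the vector line. The 4 APE1-line columns lay within 0.14 log2 of each other and all lay below the vector columns. TM7SF2 fell in wtAPE1, with a difference relative to the median row of -0.61 ± 0.15 log2 (limma adjusted p = 0.0496), beside -0.70 ± 0.15 log2 in ubAPE1 (adjusted p = 0.0577). The wtAPE1 call stood at the edge of the threshold: it was lost with no row filter (adjusted p = 0.05), with a filter at the 50th percentile (adjusted p = 0.0635), and without either wtAPE1 column or either vector column (adjusted p between 0.0808 and 0.360).

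DHCR7, the reductase that makes cholesterol in a last step of the pathway, was at 7.88 log2 with and 7.49 without doxycycline in wtAPE1, 7.80 with and 7.86 without in ubAPE1, and 8.35 with and 8.54 without in vector. Both APE1 lines lay below vector without overlap, while their own ranges overlapped, with relative differences of -0.61 log2 for wtAPE1 (limma adjusted p = 0.0798) and -0.53 log2 for ubAPE1 (adjusted p = 0.193). MSMO1, the methyl sterol monooxygenase, was at 7.00 log2 with and 6.65 without doxycycline in wtAPE1, 6.82 with and 7.50 without in ubAPE1, and 7.54 with and 7.53 without in vector. Its ubAPE1 dox- column came within 0.03 log2 of the vector columns, so the difference was -0.56 log2 for wtAPE1 (adjusted p = 0.186) and -0.29 log2 for ubAPE1 (adjusted p = 0.65). SC5D, a sterol desaturase, had relative differences of -0.50 log2 in wtAPE1 and -0.48 log2 in ubAPE1. SQLE, the squalene epoxidase and a control point of the pathway, had -0.39 log2 in wtAPE1 and -0.38 log2 in ubAPE1.

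The other steps after squalene stayed close to the median row. EBP, a sterol isomerase, was at -0.17 log2 in wtAPE1 and -0.04 log2 in ubAPE1 relative to vector. NSDHL, which removes a carboxyl group after the methyl oxidation, was at -0.08 log2 in wtAPE1 and 0.02 log2 in ubAPE1. LSS, which closes the ring system to lanosterol, was at 0.19 log2 in wtAPE1 and 0.10 log2 in ubAPE1, with levels from 7.63 to 7.74 log2 over all 6 columns. The median over the 8 genes was -0.44 log2 for wtAPE1 and -0.34 log2 for ubAPE1.

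**Figure D2:**
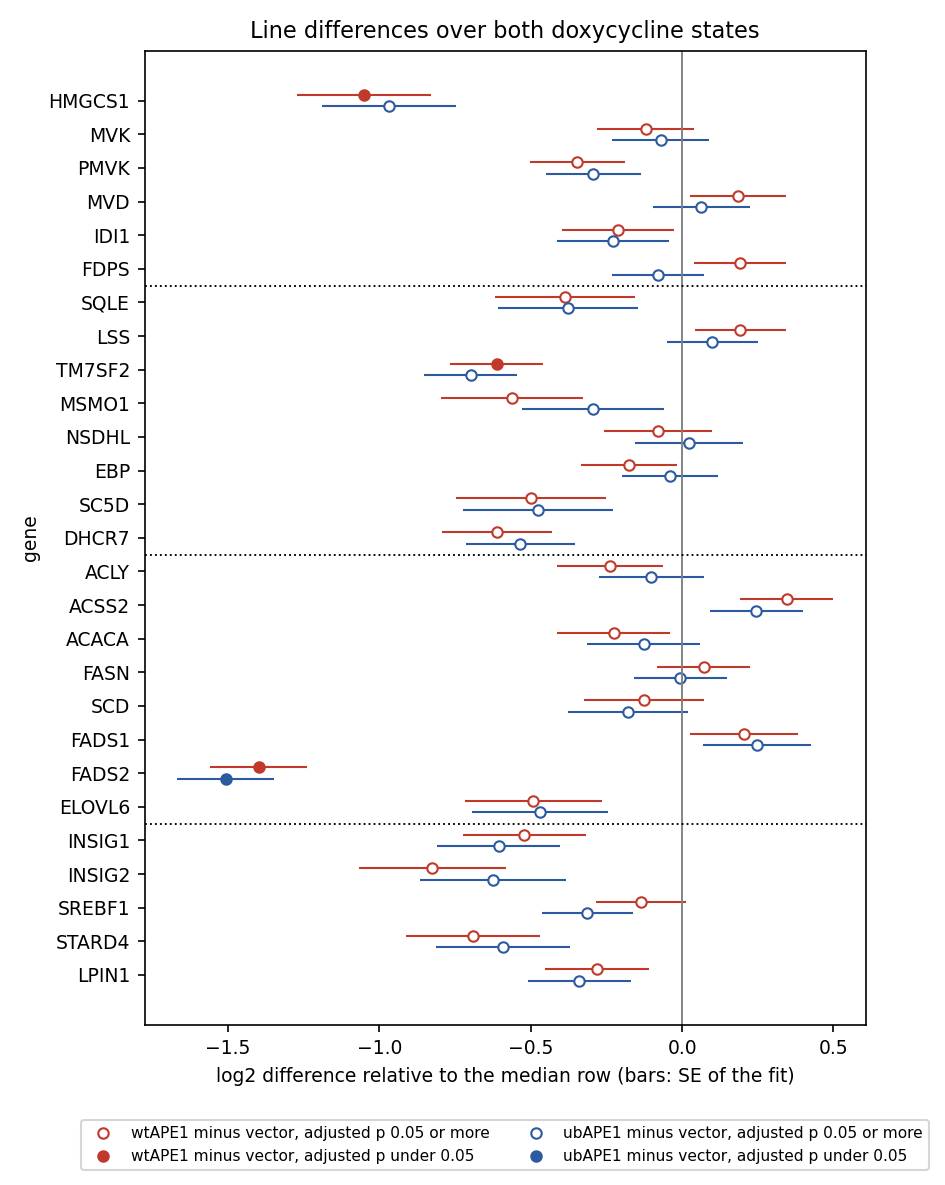
Log2 difference of each measured gene between an APE1 line and the vector line over both doxycycline states, relative to the median row (x axis, bars are the SE of the fit); filled points passed an adjusted p of 0.05. FADS2 lies at -1.40 for wtAPE1 and -1.51 for ubAPE1 and HMGCS1 at -1.05 and -0.97, while MVD, LSS, ACSS2 and FADS1 lie above 0 in both.

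In the fatty acid branch, FADS2 was the 1 gene of 8 called between the lines. It encodes a front-end desaturase that starts the conversion of essential fatty acids to long polyunsaturated ones. Its level was 6.26 log2 with and 6.18 without doxycycline in wtAPE1, 6.10 with and 6.26 without in ubAPE1, and 7.62 with and 7.91 without in vector. The 4 APE1-line columns lay within 0.16 log2 of each other and 1.36 log2 or more below the vector columns. FADS2 fell in wtAPE1, with a difference relative to the median row of -1.40 ± 0.16 log2 (limma adjusted p = 0.00298), 2.63-fold lower and rank 38 from the lowest of 11619 rows. In ubAPE1 it fell too, at -1.51 ± 0.16 log2 (limma adjusted p = 0.00305), 2.84-fold lower and rank 28 from the lowest. FADS2 was called in both lines under every alternative of the fit in which the difference could be estimated.

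FADS1, the neighbouring desaturase gene of the same fatty acid route, was not called. Its level was 7.51 log2 with and 7.19 without doxycycline in wtAPE1, 7.35 with and 7.58 without in ubAPE1, and 7.23 with and 7.35 without in vector. The lines overlapped, and the relative differences were 0.20 ± 0.18 log2 for wtAPE1 (limma adjusted p = 0.875) and 0.25 ± 0.18 log2 for ubAPE1 (adjusted p = 0.809). The genes lie head to head on chromosome 11 in RefSeq (GRCh38.p14), and the first annotated FADS2 start lies 800 bases inside FADS1, on the opposite strand. The sources used here do not say which bases the probes of each row cover.

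The other enzymes of the fatty acid branch were not called, and their values ranged from near the median row to well below it. FASN, the fatty acid synthase, was at 9.56 log2 with and 9.62 without doxycycline in wtAPE1, 9.64 with and 9.52 without in ubAPE1, and 9.60 with and 9.73 without in vector. Its relative difference from vector was 0.07 log2 for wtAPE1 and -0.01 log2 for ubAPE1, with the lines overlapping. ACLY, which makes cytosolic acetyl-CoA from citrate, was at -0.24 log2 for wtAPE1 and -0.10 log2 for ubAPE1, and ACACA, which carboxylates it to malonyl-CoA, at -0.23 log2 for wtAPE1 and -0.13 log2 for ubAPE1. SCD, the desaturase of saturated fatty acids, was at -0.13 log2 for wtAPE1 and -0.18 log2 for ubAPE1. ELOVL6, an elongase of saturated fatty acids, was at -0.49 log2 for wtAPE1 (limma adjusted p = 0.212) and -0.47 log2 for ubAPE1 (adjusted p = 0.401), and both wtAPE1 columns lay below both vector columns. ELOVL6 was called lower in wtAPE1 without either ubAPE1 column, and in ubAPE1 without the ubAPE1 dox- column. The values of ACLY and ACACA for wtAPE1 and of ELOVL6 for both lines lay below the 25th percentile of all kept rows. ACSS2, which makes acetyl-CoA from acetate, was the only measured gene with all 4 APE1-line columns above both vector columns, which 8.19% of kept rows did. It was at 0.35 log2 for wtAPE1 (limma adjusted p = 0.504) and 0.25 log2 for ubAPE1 (adjusted p = 0.778).

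All 5 measured genes of the regulator group lay below the median row in both APE1 lines, with medians of -0.52 log2 for wtAPE1 and -0.59 log2 for ubAPE1, and none passed the test on the values as deposited. INSIG1, which retains the SREBP complex and is itself a target of SREBP, was at 8.02 log2 with and 7.88 without doxycycline in wtAPE1, 7.71 with and 8.16 without in ubAPE1, and 8.78 with and 8.46 without in vector. Both APE1 lines lay below vector without overlap, while their own ranges overlapped. The relative differences were -0.52 ± 0.20 log2 for wtAPE1 (limma adjusted p = 0.154) and -0.61 ± 0.20 log2 for ubAPE1 (adjusted p = 0.198). INSIG2, its paralog, was at -0.82 log2 for wtAPE1 (adjusted p = 0.0943) and -0.62 log2 for ubAPE1 (adjusted p = 0.286). STARD4, a carrier that moves cholesterol between membranes, was at -0.69 log2 for wtAPE1 (adjusted p = 0.108) and -0.59 log2 for ubAPE1 (adjusted p = 0.259).

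SREBF1, which encodes SREBP-1, had smaller differences than INSIG1, INSIG2 and STARD4. Its level was 6.77 log2 with and 6.70 without doxycycline in wtAPE1, 6.62 with and 6.65 without in ubAPE1, and 6.97 with and 7.07 without in vector. The APE1-line columns lay below the vector columns, but by -0.14 log2 relative to the median row in wtAPE1 (limma adjusted p = 0.362) and -0.31 log2 in ubAPE1 (adjusted p = 0.353). LPIN1, a phosphatidate phosphatase of glycerolipid synthesis, was at -0.28 log2 for wtAPE1 and -0.34 log2 for ubAPE1.

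Set side by side, the sterol branch was lower than the fatty acid branch in both APE1 lines by a small margin. Its median was -0.28 log2 against -0.18 log2 for the fatty acid branch in wtAPE1 minus vector, and -0.26 log2 against -0.11 log2 in ubAPE1 minus vector, a gap of -0.10 log2 for wtAPE1 and -0.15 log2 for ubAPE1. With the trend in gene length removed, both gaps were -0.25 log2, and with rows kept from the 50th percentile up the wtAPE1 gap was -0.17 log2. Under quantile normalization the gap was -0.11 log2 for wtAPE1 and -0.12 log2 for ubAPE1. In single states it was -0.15 log2 with and -0.04 log2 without doxycycline for wtAPE1, and -0.08 with and -0.07 without for ubAPE1. The mevalonate genes alone, at -0.17 log2 for wtAPE1 and -0.15 log2 for ubAPE1, lay near the fatty acid branch. The steps after squalene were at -0.44 log2 for wtAPE1 and -0.34 log2 for ubAPE1. Below the median row were 11 of 14 sterol genes in each line, against 5 of 8 fatty acid genes in wtAPE1 and 6 of 8 in ubAPE1. All 4 APE1-line columns lay below both vector columns, as deposited, for 9 of 14 sterol genes, 2 of 8 fatty acid genes and 5 of 5 regulators and others. That makes 16 of the 27 genes, against 25% of all kept rows. With columns centred on their medians, 12 of 27 did so (6 sterol, 1 fatty acid and 5 regulators and others), against 15.4% of rows. As deposited, the gap between the highest APE1-line column and the lower vector column was only 0.0005 log2 for SQLE. It was 0.01 log2 for MVK and 0.03 log2 for MSMO1. These medians and counts describe the lists and carry no test.

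Levels of several genes differed by doxycycline state within a line, so the line differences were also taken in each state, as values with no test. A size rule of 1.5-fold relative to the median row was used. For wtAPE1 minus vector, 6 of 27 genes were lower with doxycycline (4.64% of all kept rows) and 7 without it (5.14%). FADS2, HMGCS1, INSIG2 and TM7SF2 were in both sets, STARD4 and INSIG1 only in the set with doxycycline, and DHCR7, SC5D and MSMO1 only in the set without. For ubAPE1 minus vector, 9 of 27 were lower with doxycycline (8.78% of rows) and 3 without it (2.93%), the 3 being FADS2, TM7SF2 and DHCR7. HMGCS1 was at -1.23 log2 with and -0.90 log2 without doxycycline for wtAPE1 minus vector, and at -1.39 log2 with and -0.55 log2 without for ubAPE1 minus vector. INSIG2 was at -1.08 log2 with and -0.18 log2 without doxycycline for ubAPE1 minus vector, and STARD4 at -1.03 log2 with and -0.15 log2 without. FADS2 was low in every pairing, between -1.30 and -1.61 log2.

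No gene of the pathway was called between the ubAPE1 and wtAPE1 lines. For ubAPE1 minus wtAPE1, limma called 0 of the 27 genes and 0% of all kept rows at an adjusted p of 0.05. At an unadjusted p under 0.05 it counted 0 of the 27 genes, against 47 rows in all (0.405%). The relative differences ran from -0.26 log2 (FDPS) to 0.28 log2 (MSMO1). In single columns the order of the lines turned with the state. With doxycycline, 20 of 27 genes were lower in ubAPE1 than in wtAPE1, and none passed 1.5-fold lower (0.267% of rows did) or higher (0.172%). The widest were SC5D at -0.42 log2, PMVK at 0.33 log2 and ELOVL6 at -0.32 log2. Without it, 18 of 27 were higher in ubAPE1, and MSMO1 alone passed 1.5-fold higher, at 0.68 log2 (1.01% of rows), with 0 genes lower (0.895%), followed by INSIG2 at 0.58 log2 and SC5D at 0.49 log2.

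**Figure D3:**
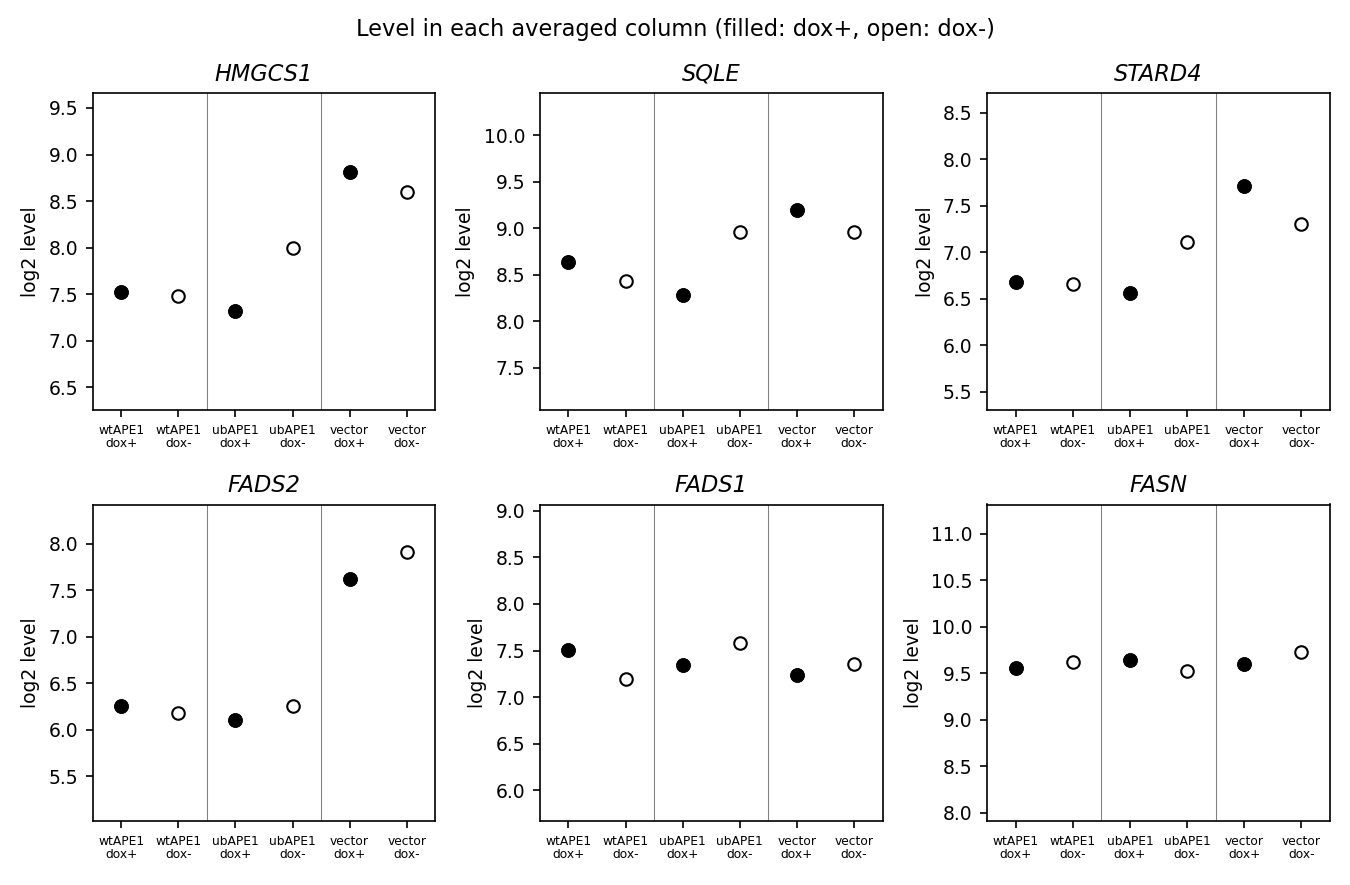
Log2 level (y axis) of 6 genes in the 6 averaged columns, with filled points for dox+ and open points for dox-. FADS2 is low in all 4 columns of the APE1 lines, HMGCS1, SQLE and STARD4 are lower with than without doxycycline in ubAPE1 and higher with it in vector, and FADS1 and FASN overlap between lines.

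Doxycycline had no common effect on the pathway that passed the test. Limma called 0 of the 27 genes and 0% of all kept rows. APEX1, which was higher with doxycycline in both APE1 lines, was not called either. Its common effect was 0.71 log2 relative to the median row (limma unadjusted p = 0.00705), rank 11618 from the lowest of 11619 rows. The lack of calls therefore does not show that the pathway did not respond. At an unadjusted p under 0.05 limma counted 1 of the 27 genes, ELOVL6, against 194 rows in all (1.67%). ELOVL6 was lower with doxycycline in each line relative to the median row, at -0.17 log2 in wtAPE1, -0.91 log2 in ubAPE1 and -0.27 log2 in vector (common effect -0.46 ± 0.18 log2, limma unadjusted p = 0.029). Its levels were 5.83 log2 with and 5.93 without doxycycline in wtAPE1, 5.45 with and 6.50 without in ubAPE1, and 6.36 with and 6.68 without in vector. The ubAPE1 value made ELOVL6 the only one of the 27 genes to pass the 1.5-fold rule in any line, where 3.81% of kept rows were lower by that rule in ubAPE1 and 1.21% higher. In wtAPE1, 0 of 27 passed lower (0.422% of rows) or higher (0.508%), and in vector 0 passed lower (0.602%) or higher (0.344%).

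The responses of named genes ran in different directions in the lines. In ubAPE1, HMGCS1 was at -0.55 log2 with doxycycline against without, as were MSMO1 and SQLE, with SC5D at -0.50 log2, INSIG2 at -0.51 log2, STARD4 at -0.42 log2 and INSIG1 at -0.32 log2. In vector, STARD4 was at 0.45 log2, INSIG2 at 0.38 log2, INSIG1 at 0.37 log2, SQLE at 0.28 log2 and HMGCS1 at 0.27 log2. In wtAPE1 the widest were SC5D at 0.44 log2, PMVK at -0.37 log2 and ACLY at 0.34 log2. STARD4 shows the pattern in its levels, which were 6.68 log2 with and 6.65 without doxycycline in wtAPE1, 6.57 with and 7.11 without in ubAPE1, and 7.71 with and 7.31 without in vector. Of the 27 genes, 9 were above the median row in vector and below it in ubAPE1, against 28.8% of all kept rows. That share is near the one over all rows. Of these 9, 6 also lay at least 1.5-fold apart (8.56% of kept rows, lower in ubAPE1). Against wtAPE1, 4 genes had an opposite and lower response in ubAPE1 by the same rule (7.41% of kept rows). The wider spread in ubAPE1 held over the array too: the 25th and 75th percentiles of kept rows were -0.22 and 0.20 log2 there, beside -0.12 and 0.13 log2 in wtAPE1 and -0.11 and 0.11 log2 in vector.

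In ubAPE1 the response also moved with genomic gene length over all rows with a known length. Its median was 0.17 log2 in the shortest quartile of genes and -0.16 log2 in the longest, beside -0.06 and 0.04 log2 in wtAPE1 and -0.04 and 0.03 log2 in vector. With that trend removed, the ubAPE1 responses were -0.57 log2 for HMGCS1, -0.55 log2 for SQLE, -0.62 log2 for MSMO1 and -0.50 log2 for SC5D. INSIG2 was then at -0.51 log2, STARD4 at -0.48 log2, INSIG1 at -0.44 log2 and ELOVL6 at -0.75 log2. The ELOVL6 response was thus smaller than before, and those of MSMO1 and INSIG1 were larger. MSMO1 then passed the 1.5-fold rule as well as ELOVL6. Most line differences in single states moved with gene length too. In the shortest and longest quartiles, the medians for wtAPE1 minus vector were 0.09 and -0.13 log2 with doxycycline, and 0.15 and -0.14 log2 without. For ubAPE1 minus vector they were 0.17 and -0.23 log2 with doxycycline, but -0.03 and 0.001 log2 without. For ubAPE1 minus wtAPE1 they were 0.08 and -0.07 log2 with doxycycline, and -0.18 and 0.15 log2 without. The part of gene length in these responses and line differences was not tested.

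By branch, the doxycycline responses were small. The sterol branch median was 0.05 log2 in wtAPE1, -0.03 log2 in ubAPE1 and -0.05 log2 in vector, and the fatty acid branch median was 0.10 log2 in wtAPE1, -0.07 log2 in ubAPE1 and -0.08 log2 in vector. Regulators and others had medians of 0.06 log2 in wtAPE1, -0.32 log2 in ubAPE1 and 0.37 log2 in vector, the widest of the groups in ubAPE1 and vector. SREBF1 lay near 0, with responses of -0.01 log2 in wtAPE1, 0.10 log2 in ubAPE1 and -0.06 log2 in vector.

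**Figure D4:**
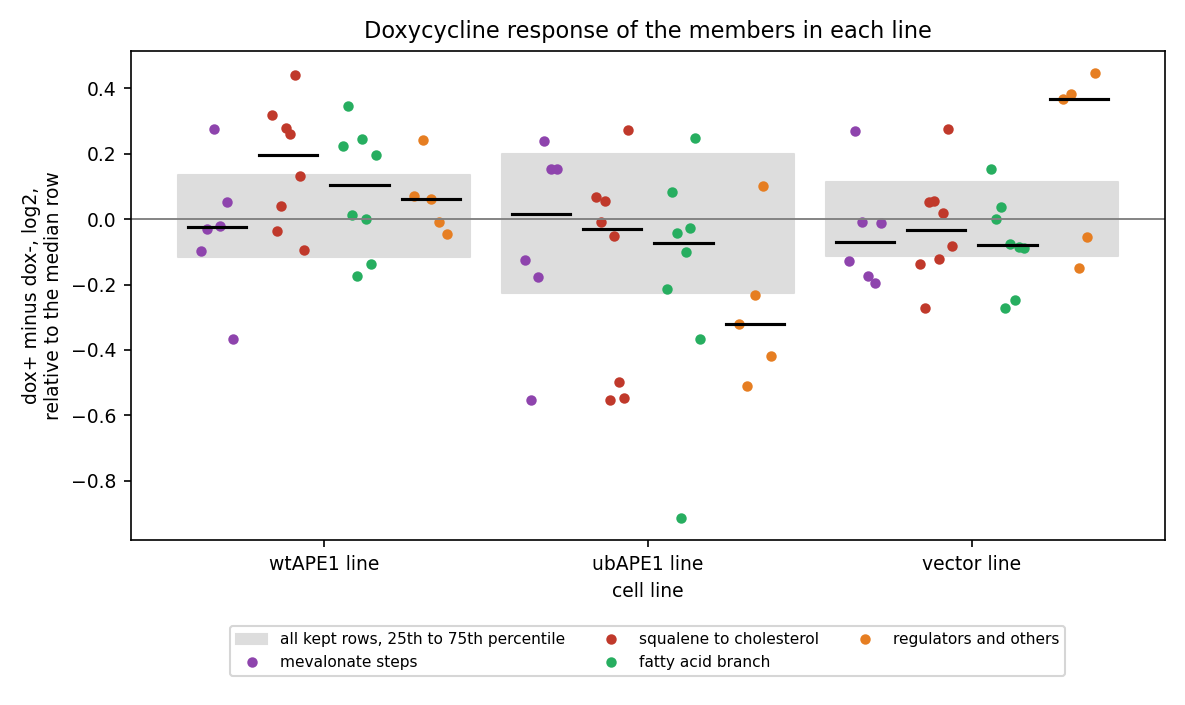
Log2 response to doxycycline (dox+ minus dox-, relative to the median row, y axis) of each measured gene in each line, coloured by gene group, with black lines at the group medians and grey bands from the 25th to the 75th percentile of all kept rows. The regulators and others have medians of -0.32 in ubAPE1 and 0.37 in vector, and the widest points are ELOVL6 at -0.91 in ubAPE1 and STARD4 at 0.45 in vector.

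Neighbouring lipid genes were taken from 5 lists by pathway, of which 50 of 76 genes were kept. Over 4 kept genes of other sterol and isoprenoid synthesis the median relative difference was -0.22 log2 for wtAPE1 minus vector and -0.08 log2 for ubAPE1 minus vector. LBR, a sterol reductase of the nuclear envelope, was at -0.25 log2 for wtAPE1 and -0.11 log2 for ubAPE1, and GGPS1, which makes geranylgeranyl diphosphate, at -0.24 log2 for wtAPE1 and -0.25 log2 for ubAPE1. The 6 kept genes of SREBP processing had medians of -0.14 log2 for wtAPE1 and -0.12 log2 for ubAPE1. Among them the sterol-sensing scaffold gene ERLIN1 was at -0.35 log2 for wtAPE1 and -0.24 log2 for ubAPE1, and SPRING1, a cofactor of SREBP processing, at -0.29 log2 for wtAPE1 and -0.20 log2 for ubAPE1. Over 10 kept genes of sterol uptake, storage and efflux the medians were -0.06 log2 for wtAPE1 and 0.02 log2 for ubAPE1. Of these, NPC1, which exports cholesterol from lysosomes, was lowest, at 6.58 log2 with and 6.39 without doxycycline in wtAPE1, 6.40 with and 6.82 without in ubAPE1, and 7.35 with and 7.26 without in vector. Its relative difference was -0.67 log2 for wtAPE1 (limma adjusted p = 0.07) and -0.62 log2 for ubAPE1 (adjusted p = 0.148). MYLIP, a ligase that degrades the LDL receptor, was at -0.27 log2 for wtAPE1 and -0.30 log2 for ubAPE1.

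Beyond sterols, 18 kept genes of other fatty acid and glycerolipid synthesis had medians of -0.20 log2 for wtAPE1 minus vector and -0.14 log2 for ubAPE1 minus vector. The malic enzyme gene ME1, which supplies NADPH, was at -0.70 log2 for wtAPE1 and -0.65 log2 for ubAPE1, and the acyl-CoA synthetase gene ACSL4 at -0.45 log2 for wtAPE1 and -0.35 log2 for ubAPE1. The 12 kept genes of fatty acid oxidation, the opposing pathway, had medians of -0.25 log2 for wtAPE1 and -0.07 log2 for ubAPE1. Among them ETFDH, which passes electrons from that pathway to ubiquinone, was at -0.50 log2 for wtAPE1 and -0.42 log2 for ubAPE1, and the acyl-CoA dehydrogenase gene ACADVL at -0.46 log2 for wtAPE1 and -0.53 log2 for ubAPE1. Of the 50 genes, 0 passed limma's adjusted test for wtAPE1 minus vector (2.11% of all kept rows) or ubAPE1 minus vector (1.39%). At an unadjusted p under 0.05, 14 of 50 were counted for wtAPE1 (17.1% of all kept rows) and 4 of 50 for ubAPE1 (11.5%). By the 1.5-fold rule in single columns, 3 genes were lower for wtAPE1 minus vector with doxycycline (NPC1, ELOVL4 and ME1; 4.64% of rows) and 2 without it (NPC1 and ME1; 5.14%). For ubAPE1 minus vector with doxycycline, 6 were lower (8.78% of rows) and 1, HACD3, higher (2.25% of rows), and without it 0 were lower (2.93%). The ubAPE1 response to doxycycline was lower by that rule for 4 genes, ELOVL4, ME1, ACADM and ETFDH (3.81% of rows). In the line difference of ubAPE1 minus vector with doxycycline, ME1 was at -1.23 log2.

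Some epithelial genes moved with the same line difference, while others lay on the opposite side of the median row. Of 9 kept kidney epithelium genes, 3 were lower in wtAPE1 (2.01% of all kept rows) and 2 in ubAPE1 (1.31%) by limma: EPCAM, an epithelial adhesion gene, at -3.01 log2 for wtAPE1 and -2.98 log2 for ubAPE1, KRT19 at -0.85 log2 for wtAPE1 and -0.89 log2 for ubAPE1, and LRP2 at -0.77 log2 for wtAPE1. None was called higher, but 5 of the 9 lay above the median row for wtAPE1 and 4 for ubAPE1, the highest being PAX8, a transcription factor gene of kidney, at 0.45 log2 for wtAPE1 and 0.25 log2 for ubAPE1. The list's median was 0.08 log2 for wtAPE1 and -0.02 log2 for ubAPE1. The list's mean level was between 6.33 and 6.37 log2 in the APE1-line columns, against 6.94 and 6.90 log2 in the vector columns with and without doxycycline, and its summed level was between 10.83 and 11.04 log2, against 11.27 and 11.33 log2 in the vector columns. KRT8, the most abundant of them, was between 10.2 and 10.5 log2 in all columns. Of the hepatocyte and adipocyte markers, 1 kept row each (APOA1 and PLIN1) lay between 5.20 and 6.26 log2. Of 5 fibroblast markers, 3 collagen genes were kept, with medians of 0.32 log2 for wtAPE1 minus vector and 0.18 log2 for ubAPE1 minus vector and none called. COL3A1 was the widest of them, at 5.82 log2 with and 5.83 without doxycycline in wtAPE1, 5.79 in both ubAPE1 columns, and 5.30 with and 5.23 without in vector. Its relative difference was 0.71 log2 for wtAPE1 (limma adjusted p = 0.106) and 0.60 log2 for ubAPE1 (adjusted p = 0.167). The summed level of the 3 genes was between 7.41 and 7.54 log2 in the APE1-line columns, against 7.36 and 7.30 log2 in the vector columns with and without doxycycline. The lowest value of any row was 1.14 log2, so a level above 0 does not show that a marker is expressed. The part of such differences between the lines in the sterol and fatty acid values was not tested.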

How the data were processed

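The authors deposited log2 levels by array row, each a mean of 3 biological replicates per the labels. Their scale was taken from the range of the values. The sources used here do not give the summarisation or normalization, and genome build hg 18 comes from the submitters' processing notes. Of 15492 rows, 12616 had 1 gene symbol in the platform annotation, 2031 had several and 845 had none.

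Rows with a mean of at least the 25th percentile (5.03 log2) were kept, 11619 in all. Differences were tested with limma 3.58.1 in R 4.3.3 (lmFit, eBayes) by an additive fit of cell line and doxycycline on all 6 columns, with 2 residual and 6.28 prior degrees of freedom, a median residual SD of 0.151 log2, Benjamini-Hochberg adjustment over kept rows and a threshold of 0.05. Every adjusted p-value refers to the deposited difference, even beside a size given relative to the median row. Single-column comparisons were counted at 1.5-fold, with no test. Genes named in full were those past the threshold, INSIG1, SREBF1 and the 3 widest of each single-column comparison. Some genes beyond that rule (such as FADS1, FASN, KRT8, PAX8, COL3A1, ELOVL4, ACADM and HACD3) were named after their values were seen. The fit was run on simulated data with independent noise in each column and line differences added for some rows. Such data cannot check the use of doxycycline states in place of replicates. Alternatives were other row filters, normalizations and eBayes settings, a floor, a length trend removed over 20 bins, and columns or lines left out. The genes and lists were chosen with earlier results of these data known. Promoters came from RefSeq (GRCh38.p14).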

Additional observations from a re-analysis of the deposited data

Results flagged for a closer look

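Responses to doxycycline that pointed opposite ways in the ubAPE1 line and another line, and lay at least 1.5-fold apart, were picked out. Each rests on 1 averaged column per state, and the differences were not tested.

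Between ubAPE1 and vector, 6 of the 27 genes were picked out, all with the lower response in ubAPE1, where 8.56% of all kept rows met the same rule in that direction. The difference in response, ubAPE1 minus vector, was -0.82 log2 for HMGCS1, the entry enzyme of the mevalonate pathway, and -0.82 log2 for SQLE, the squalene epoxidase. MSMO1, the methyl sterol monooxygenase, had -0.61 log2, from -0.55 log2 in ubAPE1 and only 0.06 log2 in vector. Among the regulators and others it was -0.89 log2 for INSIG2, -0.87 log2 for the cholesterol carrier STARD4 and -0.69 log2 for INSIG1. No fatty acid gene met the rule, which asks for opposite directions. It left out ELOVL6, which was below the median row in both lines, at -0.91 log2 in ubAPE1 and -0.27 log2 in vector.

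Between ubAPE1 and wtAPE1, 4 genes were picked out, again lower in ubAPE1, where 7.41% of rows met the rule. The difference, ubAPE1 minus wtAPE1, was -0.94 log2 for the sterol desaturase SC5D, -0.83 log2 for MSMO1, -0.75 log2 for INSIG2 and -0.68 log2 for SQLE. SQLE, MSMO1 and INSIG2 were in both sets, which share the ubAPE1 columns.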

How the results depend on the processing

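With other settings, the 3 genes called for wtAPE1 minus vector became 5 under quantile normalization (5.37% of all rows called in either direction), 7 with columns centred (5.65%), 6 with the length trend removed (3.87%) and 10 without the ubAPE1 line (8.37%), against 2.11% as reported. The 1 call for ubAPE1 minus vector became 4 under quantile normalization (4.03%), 6 with columns centred (4.64%), 2 with an intensity trend and robust eBayes (2.06%), 3 with the length trend removed (2.63%) and 3 without the wtAPE1 line (2.81%), against 1.39% as reported. The share of all rows called also rose under each of these settings. With columns centred every gene had the same SE, so those calls follow size alone. For wtAPE1 minus vector, 2 genes were called with no row filter (2.08% of rows) and 2 with the 50th percentile filter (1.45%). For ubAPE1 minus vector, 1 was called with no row filter (1.46%) and 1 with the 50th percentile filter (0.8%). Leaving out each column in turn gave from 1 to 10 calls for wtAPE1 and from 1 to 9 for ubAPE1, and a line left with 1 column is then assumed to vary like the others. The wtAPE1 count was 1 without the wtAPE1 dox- column (0.852% of rows) or the vector dox+ column (0.861%), 6 without the wtAPE1 dox+ column (4.69%) and 10 without either ubAPE1 column (8.37%). The ubAPE1 count was 9 without the ubAPE1 dox- column (8.03%), 3 without either wtAPE1 column (2.81%) and 2 without the vector dox- column (0.981%). Under quantile normalization, rows called over the array were 473 lower and 151 higher for wtAPE1, and 359 lower and 109 higher for ubAPE1. Calls for ubAPE1 minus wtAPE1 and for the common doxycycline effect were 0 of 27 genes under every setting run. The branch medians moved by less than the residual SD of 0.151 log2, yet by much of their own size in places. With the length trend removed, the fatty acid median was -0.10 log2 for wtAPE1 and -0.05 log2 for ubAPE1, and the sterol median -0.34 log2 for wtAPE1 and -0.29 log2 for ubAPE1. The sterol median of the ubAPE1 doxycycline response, -0.03 log2 as reported, was 0.02 log2 under quantile normalization. The values of FADS2, HMGCS1 and TM7SF2 kept their sign in the comparisons that called them. The 50th percentile filter left 23 of the 27 genes. Since each gene had 1 row, choosing other rows could not change a value. The line term of the fit pairs the columns of a line with and without doxycycline, and without that term the doxycycline effect also called 0 genes. The averaged columns carry no replicate numbers that could pair them further. The cause of these changes was not tested. Signal over background could not be assessed from values without a detection call.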
